A study of Drosophila melanogaster with 12 samples.

Results

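Peptidoglycan recognition proteins (PGRPs) are the sensors and scavengers with which flies handle bacterial cell wall. The genes described here are the 10 members PGRP-SA, PGRP-SB1, PGRP-SC1a, PGRP-SC1b, PGRP-SC2, PGRP-SD, PGRP-LB, PGRP-LC, PGRP-LE and PGRP-LF. They were chosen by gene name from an isoform-level expression table, in which they had 27 of the 30738 isoforms and 10 of the 13970 genes. The table came from Nanopore direct RNA sequencing, in which native polyadenylated RNA is read without conversion to cDNA, of heads of adult Drosophila melanogaster aged to day 10. Tau transgenic flies (elav-Gal4/+;UAS-tauR406W/+, 3 libraries) carried human tau with the R406W mutation, and control flies (elav-Gal4/+, 3 libraries) carried the driver alone. Each library was made from 500 heads of males and females in equal number, so the values are averages over many animals and over every tissue of the head. The elav promoter drives the transgene in neurons, while PGRPs are mostly known from fat body, blood cells and gut.

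Peptidoglycan, the mesh of the bacterial wall, is sensed in flies by PGRPs that feed the Toll and Imd pathways, and both pathways end in NF-kB factors that switch on antimicrobial peptide genes. Some PGRPs bind peptidoglycan and start or block signalling, and these are called recognition members here. Others are amidases, enzymes that cut peptidoglycan and can thereby lower the stimulus, and several of the amidase genes are themselves targets of Imd signalling in the fat body and gut.

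The unit throughout was TPM as NanoCount gives it, in which the reads assigned to an isoform are scaled to a fixed total per library with no division by length. The step between low values gave 684408 to 1329915 assigned reads in the tau libraries and 573001 to 910700 in the control libraries, so 3 reads were worth 2.26 to 4.38 TPM in tau and 3.29 to 5.24 TPM in control. Features averaging 5 TPM or more across all 6 libraries entered limma on log2(TPM + 1), isoforms and gene sums in separate fits, and p-values were adjusted by Benjamini-Hochberg over all 12800 isoforms or 8963 genes tested. An adjusted p of 0.05 or less is called a change. As markers of the head, all 6 neuronal genes on the list were above 0 in at least 1 library. Of these, elav stayed below the level of 3 reads in every library. Of 9 photoreceptor genes, 8 were among the genes listed and Rh6 was not. The 8 summed to 43528 to 51149 TPM in tau and 38192 to 42576 TPM in control. The eye pigment gene w, with which many fly transgenes are marked, had 21.9, 25.6 and 51.7 TPM in tau and 17.6, 17.1 and 10.5 TPM in control. The human transgene itself was not analysed here.

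Among the PGRP members, PGRP-SB1 was the only gene called. Its single isoform, with the same values, was not called (limma adjusted p 0.0581 over isoforms). The gene call held in 10 of 17 alternative fits. The PGRP-SB1 transcript was 1.99-fold higher in tau heads, and it was also by far the most abundant PGRP in both genotypes. The other amidases with enough reads, PGRP-SC1b and PGRP-LB, had positive fold changes that did not pass the test. The recognition members PGRP-SA, PGRP-SD, PGRP-LC, PGRP-LE and PGRP-LF did not pass it either. Of the 10 genes, 8 had the mean level needed for a test and 1 was called, beside 1.08% of all tested genes called in either direction and 0.636% called higher in tau.

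**Figure D1:**
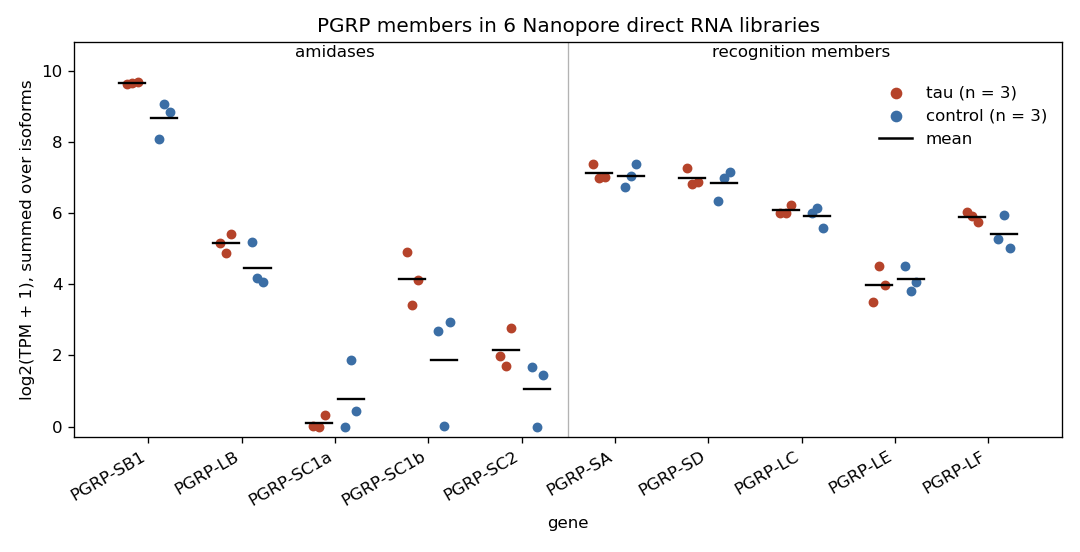
Expression of each PGRP gene, as log2(TPM + 1) summed over its isoforms, in 3 tau (red, left) and 3 control (blue, right) libraries. Points are libraries and black lines are group means. PGRP-SB1 lies highest, with its 3 tau libraries between 795 and 816 TPM and its control libraries between 270.1 and 534 TPM.

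PGRP-SB1 encodes a secreted amidase with bactericidal activity and is induced on infection. It lies on chromosome 3L, 16727299 to 16727989 (BDGP6/dm6), minus strand, with 1 annotated isoform of 2 exons, 623 nt and 190 codons. It had 795, 811 and 816 TPM in the tau libraries and 270.1, 534 and 461 TPM in the control libraries. The 3 tau libraries lay close together and above every control library, and control library 1 was the lowest of the 6. The group means were 807 ± 10.9 TPM in tau and 422 ± 136 TPM in control (SD, n = 3 each), resting on 2458 reads in tau and 916 reads in control. The log2 fold change was 0.99 ± 0.20 (SE), with a 95% interval from 0.57 to 1.42 and an adjusted p of 0.0263 by limma over genes, rank 76 of 8963 by p. The spread was uneven, since the SD on the log2 scale was 0.020 in tau and 0.52 in control.

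The same 6 values stand for the gene's only isoform, where limma over isoforms gave an adjusted p of 0.0581, so the isoform was not called. No PGRP isoform was called among the 13 tested, beside 0.758% of all tested isoforms, and 3 of the 13 had an unadjusted limma p under 0.05, beside 8.21% of all tested isoforms. The groups did not overlap for 4 of the 13 (PGRP-SB1-RA, PGRP-SC1b-RA and PGRP-LC-RE higher in tau, PGRP-LB-RE lower), beside 13.4% of all tested isoforms. Of these 4, all but PGRP-SB1-RA passed the filter on low values only through the genotype in which they are higher, so nothing is read from the count. The gene-level call was lost without tau library 2 (adjusted p 0.0734), tau library 3 (0.105) or control library 3 (0.102) in the limma fit, and the fold change stayed positive in each case. Without the shallowest library of each genotype, tau library 1 and control library 3, the log2 fold change was 1.10 and the adjusted p 0.243 by limma. The call was also lost with all 6 libraries when limma's spread was not allowed to depend on level (0.485), with robust spread estimates (0.0608) or without the filter on low values (0.185).

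PGRP-SB1 is expressed in fat body, so the fat body markers are given beside it. Of the 10 markers (yolk proteins, larval serum proteins, lipoproteins and others), 8 were tested and 0 were called. At an unadjusted limma p under 0.05, 1 was higher and 2 were lower. Over all 8963 tested genes, 731 had such a p in either direction. The summed level of the markers was 28208 to 37988 TPM in tau and 35794 to 44141 TPM in control. All 10 were above 0 in at least 1 library, but Fbp1 and Lsp1gamma stayed below the level of 3 reads. The marker sums overlapped between the genotypes. Most of the sum is yolk protein RNA. Yp1, Yp2 and Yp3 together had 26743 to 36125 TPM in tau and 33860 to 42144 TPM in control. These yolk protein genes also stand on the list of sex markers, so their level is not a measure of fat body alone. Of the 8 tested markers, 1 had a log2 fold change above 0, and the median was -0.12. It was Lsp2, a larval serum protein gene, at 1.72 (adjusted p 0.411 by limma). The 2 lower ones were Yp3 (-0.46, adjusted p 0.0879 by limma) and fat-spondin (-0.54, adjusted p 0.214). Yp3 was lower in each tau library than in each control library. The part of fat body in the PGRP-SB1 difference was not tested. The 9 haemocyte markers summed to 412 to 597 TPM in tau and 430.4 to 637 TPM in control, with 0 of 8 tested called. In whole heads, a change in RNA per cell and a change in the number of cells of a type cannot be told apart.

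The immediate neighbour of PGRP-SB1 is PGRP-SB2, whose annotated 3' end lies 10 nt away on the opposite strand. Both PGRP-SB2 isoforms were listed at 0 in every library, which allows up to 3 reads or 2.26 to 5.24 TPM per library. PGRP-SB2 was not among the 10 members.

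PGRP-SC1b is a secreted amidase known mainly from the gut, where it dampens the Imd response to resident bacteria. It lies on chromosome 2R, 8713446 to 8715094, plus strand. Its levels were 29.2, 9.78 and 16.3 TPM in tau and 5.49, 0.00514 and 6.63 TPM in control. Each tau library was above each control library, and control library 2 held no whole read of it. These levels correspond to 49.7 reads over the tau libraries and 8.80 reads over the control libraries. The log2 fold change was 2.27 ± 0.71 (95% interval 0.73 to 3.82), the 5th highest of all tested genes, but the adjusted p was 0.252 by limma. The gene passed the filter on low values through the tau libraries, since its control mean was 4.04 TPM. Its fold change also depended on the pseudocount, at 1.38 with 5 TPM and 2.63 with 0.5 TPM, and was 1.34 without control library 2.

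PGRP-SC1a is a near-identical copy 3125 nt upstream of PGRP-SC1b, with an annotated protein of the same 185 residues, and reads of the pair can be split between them in the counting. PGRP-SC1a had 0.00958, 9.07e-06 and 0.255 TPM in tau and 1.41e-06, 2.63 and 0.349 TPM in control. All 6 values were below the level of 3 reads, so no direction is given for it. Summed over the pair, the levels were 29.2, 9.78 and 16.6 TPM in tau and 5.49, 2.63 and 6.98 TPM in control. The pair was above the control range in all 3 tau libraries, with a log2 fold change of 1.64 and an exact permutation p of 0.1 (two-sided), the smallest that 3 against 3 libraries can give. The longer PGRP-SC1b isoform RB, which extends the 3' end to 1649 nt, was listed at 0 in every library.

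PGRP-SC2, the next gene on 2R (8716950 to 8717695) and likewise a secreted gut amidase, had 2.92, 2.26 and 5.86 TPM in tau and 2.20, 0 and 1.75 TPM in control. It was over the level of 3 reads in tau library 3 only. With 11 reads in tau and 3 in control, it was not tested, and no fold is given.

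Since these PGRP-SC genes are known from the midgut, midgut protease and amylase genes are given beside them. The 12 midgut markers summed to 2673, 2899 and 2119 TPM in tau and 5553, 3301 and 4131 TPM in control. All were detected, and their median log2 fold change was -0.57. Of the 12, 2 were called lower in tau and 0 higher, beside 40 of all 8963 tested genes called lower. At an unadjusted limma p under 0.05, 7 were lower and 1 (gammaTry, log2 fold change 1.32) was higher. Over all tested genes, 731 had such a p in either direction. The part of gut tissue in the PGRP-SC1b values was not tested.

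PGRP-LB is an amidase for the peptidoglycan of Gram-negative bacteria and a negative regulator of Imd signalling. It lies on chromosome 3R, 11452849 to 11460552, minus strand. Summed over 6 isoforms it had 35.1, 28.6 and 42.0 TPM in tau and 35.1, 17.1 and 15.7 TPM in control. Control library 1 reached the tau range, so the groups overlapped. The log2 fold change was 0.69 ± 0.32 (95% interval 0.0034 to 1.37), with an unadjusted limma p of 0.0490 and an adjusted p of 0.607.

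Of the 6 PGRP-LB isoforms, RC and RE were tested. Isoform RC, which starts from its own upstream first exon at 11458020 and encodes 232 residues, had 25.9, 21.4 and 32.1 TPM in tau and 22.0, 8.56 and 5.89 TPM in control. Control library 1 overlapped the tau range again, and the log2 fold change of 1.24 ± 0.41 had an adjusted p of 0.347 by limma. With 1 library left out, the log2 fold change ranged between 0.87 and 1.74 and the limma adjusted p between 0.0483 (without control library 1) and 0.789 (without tau library 3), and the other 5 such fits made no call. Isoform RE, which starts at 11454329 and encodes 215 residues, had 4.57, 3.57 and 6.17 TPM in tau and 7.32, 7.13 and 7.85 TPM in control. All 3 tau libraries lay below the control libraries for RE, with a log2 fold change of -0.57 ± 0.43 and an adjusted p of 0.842 by limma. RE passed the filter on low values through control, with a tau mean of 4.77 TPM.

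As a share of the gene, RC held 73.9, 75.0 and 76.5% in tau and 62.5, 50.0 and 37.5% in control. RE held 13.0, 12.5 and 14.7% in tau and 20.8, 41.7 and 50.0% in control. Neither share overlapped between the genotypes, with an exact permutation p of 0.1 for each and an adjusted value of 0.30 over the 9 isoform shares compared. Of those 9 shares, 3 did not overlap between the groups, beside 9.72% of the 7283 isoform shares of all genes with at least 2 tested isoforms. The 3 shares were those of PGRP-LB-RC, PGRP-LB-RE and PGRP-LC-RE. The 2 PGRP-LB shares are largely complements of each other, and PGRP-LB-RE and PGRP-LC-RE entered only through the genotype in which their level is higher, so nothing is read from this count. These shares rested on as few as 9 reads, the gene's total in control library 3, so that each read moved them visibly. RC and RE differ in their start, and the authors report that the reads may favour the 3' end. A read that stops short of the start cannot tell them apart. The 4 isoforms that share the start at 11454329 (RA, RB, RE and RF) have coding sequences of the same ends and length in the annotation and summed to 9.15, 7.14 and 9.87 TPM in tau and 13.2, 8.56 and 9.82 TPM in control, which overlapped. Isoform RD, with the most upstream start and 255 residues, stayed below the level of 1 read in all 6 libraries.

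**Figure D2:**
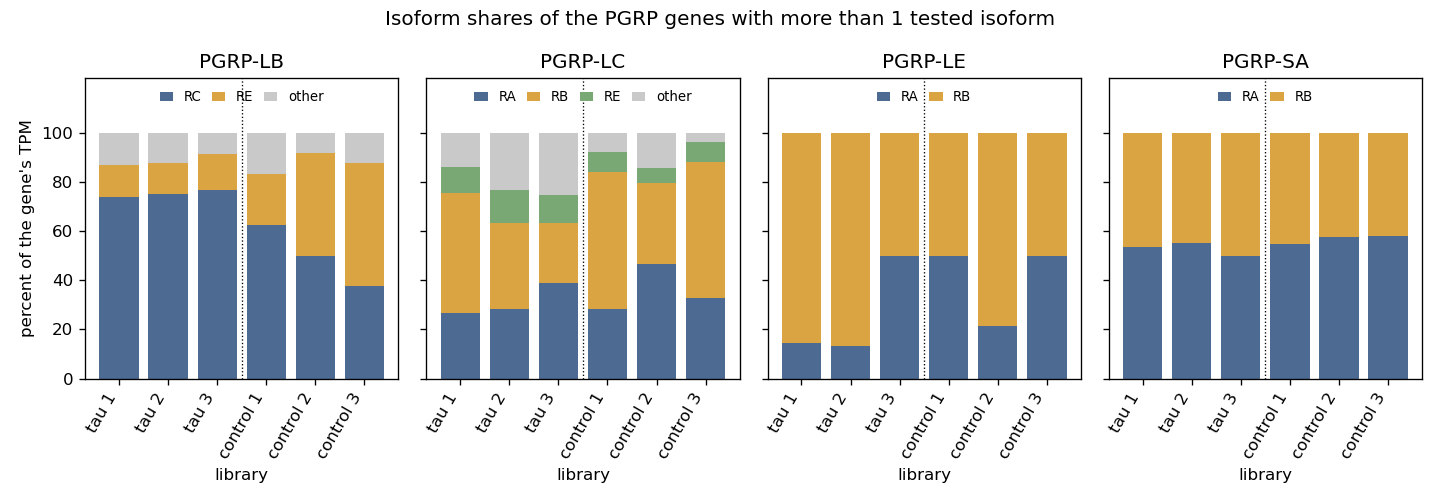
Percent of each gene's TPM held by each isoform in the 3 tau libraries (left of the dotted line) and the 3 control libraries, for the 4 PGRP genes with more than 1 tested isoform; isoforms under a mean of 5 TPM are summed as other. PGRP-LB-RC held 73.9 to 76.5% in tau and 37.5 to 62.5% in control.

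Among the recognition members, PGRP-SA is a circulating receptor that starts Toll signalling on Gram-positive peptidoglycan. It lies on the X chromosome, 11561643 to 11562779. It had 165, 126 and 128 TPM in tau and 105, 132 and 166 TPM in control. The groups overlapped over nearly their whole range, with a log2 fold change of 0.07 ± 0.19 (95% interval -0.34 to 0.48, adjusted p 0.973 by limma). Its isoforms RA and RB differ in the start of the 5' end and share 1 coding sequence of 203 codons. RA held 53.4, 55.1 and 50.0% of the gene in tau and 54.5, 57.5 and 57.8% in control, and in tau library 3 both isoforms were given the same value.

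PGRP-SD, also circulating and linked to the Toll response, is a single-exon gene on 3L (7651180 to 7651900). It had 152, 113 and 116 TPM in tau and 80.2, 126 and 143 TPM in control. Control library 1 was lowest and control library 3 lay near the highest tau library. The log2 fold change was 0.15 ± 0.22 (95% interval -0.32 to 0.62, adjusted p 0.956 by limma).

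PGRP-LC, the main transmembrane receptor of the Imd pathway, lies on 3L at 9338810 to 9348336 with 10 isoforms. Its gene sum was 62.8, 63.2 and 74.2 TPM in tau and 63.7, 69.8 and 47.1 TPM in control. The groups overlapped, with a log2 fold change of 0.16 ± 0.20 (95% interval -0.28 to 0.60, adjusted p 0.938 by limma). Most of its reads fell on RA (500 residues) and RB (520 residues), which use different last coding exons and so differ at the C-terminal, extracellular end of the receptor. RA had 16.7, 17.9 and 28.8 TPM in tau and 17.9, 32.6 and 15.4 TPM in control, and RB had 30.7, 22.1 and 18.1 TPM in tau and 35.5, 22.8 and 26.0 TPM in control. Neither isoform separated the genotypes, with log2 fold changes of -0.02 ± 0.33 for RA and -0.25 ± 0.28 for RB.

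Of the smaller PGRP-LC isoforms, RE was the only tested isoform. It starts downstream, at 9344200, and encodes 329 residues. It had 6.68, 8.46 and 8.24 TPM in tau and 5.12, 4.25 and 3.84 TPM in control. All 3 tau libraries were above all control libraries, but the log2 fold change of 0.70 ± 0.43 had an adjusted p of 0.763 by limma, and RE passed the filter on low values through tau, with a control mean of 4.41 TPM. Its share of the gene was 10.6, 13.4 and 11.1% in tau and 8.05, 6.10 and 8.15% in control, with an exact permutation p of 0.1 and an adjusted value of 0.30.

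The isoforms that share this downstream start (RE, RJ and RK, 329 to 340 residues) together held 16.2, 24.5 and 17.4% of PGRP-LC in tau and 12.2, 16.1 and 8.15% in control. The ranges of this share did not overlap, though tau library 1 and control library 2 nearly met, and the exact permutation p was 0.1. The summed TPM of these isoforms did overlap, at 10.2, 15.5 and 12.9 in tau and 7.76, 11.2 and 3.84 in control. Grouped by the end of the coding sequence instead, the isoforms with the last exon of RA held 37.2, 41.7 and 50.0% in tau and 36.2, 52.8 and 40.7% in control, which overlapped. Both groupings were made after the values were seen. A read that stops short of the 5' end cannot tell the starts apart. RG, an isoform of 345 residues with an earlier stop, had 2.92, 5.07 and 6.83 TPM in tau and 2.20, 0.000301 and 0 TPM in control. It exceeded the level of 3 reads in tau libraries 2 and 3 and in no control library, and it was too low to be tested.

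PGRP-LF, a transmembrane relative of PGRP-LC that lacks a signalling tail and restrains the Imd pathway, lies on 3L at 9349609 to 9351489, 1272 nt downstream of PGRP-LC. Its isoform had 64.3, 59.4 and 52.7 TPM in tau and 37.3, 60.5 and 31.4 TPM in control. Control library 2 lay within the tau range, while the other control libraries lay below it. The log2 fold change was 0.49 ± 0.25 (95% interval -0.051 to 1.03, adjusted p 0.689 by limma).

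The gene 473 nt upstream of PGRP-LC in the same cluster is PGRP-LA, which was not among the 10 members. It had 26.3, 21.1 and 28.3 TPM in tau and 12.1, 13.2 and 15.7 TPM in control. The groups did not overlap, with a log2 fold change of 0.84 ± 0.28 and an adjusted p of 0.327 by limma. The remaining family gene, PGRP-LD, had a mean of 2.45 TPM in tau and 2.83 TPM in control and was not tested.

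PGRP-LE, a receptor for Gram-negative peptidoglycan fragments that acts inside the cell and in the haemolymph, lies on the X chromosome at 15801153 to 15803880. It had 10.2, 21.8 and 14.6 TPM in tau and 22.0, 13.2 and 15.7 TPM in control. The groups overlapped throughout, with a log2 fold change of -0.15 ± 0.35 (95% interval -0.90 to 0.61, adjusted p 0.968 by limma). Its isoforms RA and RB share the 345-codon coding sequence and were given the same value in 3 of the 6 libraries. RB held 85.4, 86.9 and 50.0% in tau and 50.0, 78.5 and 50.0% in control, so the share varied within both genotypes. RA had 1.49, 2.87 and 7.32 TPM in tau and 11.0, 2.83 and 7.85 TPM in control, which overlapped, and passed the filter through control, with a tau mean of 3.89 TPM.

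Of the 27 isoforms, 14 were too low to be tested, and 3 of these (PGRP-LB-RD, PGRP-LC-RD and PGRP-SC1b-RB) stayed below the value of 1 read in every library. Among the others, PGRP-LC-RK had 3.48, 5.31 and 4.65 TPM in tau and 2.64, 3.05 and 1.3e-09 TPM in control. Its groups did not overlap, but all 3 control values were below 3 reads. PGRP-LC-RC had 3.14e-06, 2.65 and 5.82 TPM in tau and 3.94e-06, 3.05 and 1.86 TPM in control, and PGRP-LC-RJ had 0, 1.70 and 0.00389 TPM in tau and 0, 3.95 and 0 TPM in control. Both overlapped between the genotypes. PGRP-LC-RH and PGRP-LC-RI reached at most 2.31 TPM, and PGRP-LB-RA, PGRP-LB-RB and PGRP-LB-RF at most 3.04 TPM, and both of these highest values were in tau library 1.

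**Figure D3:**
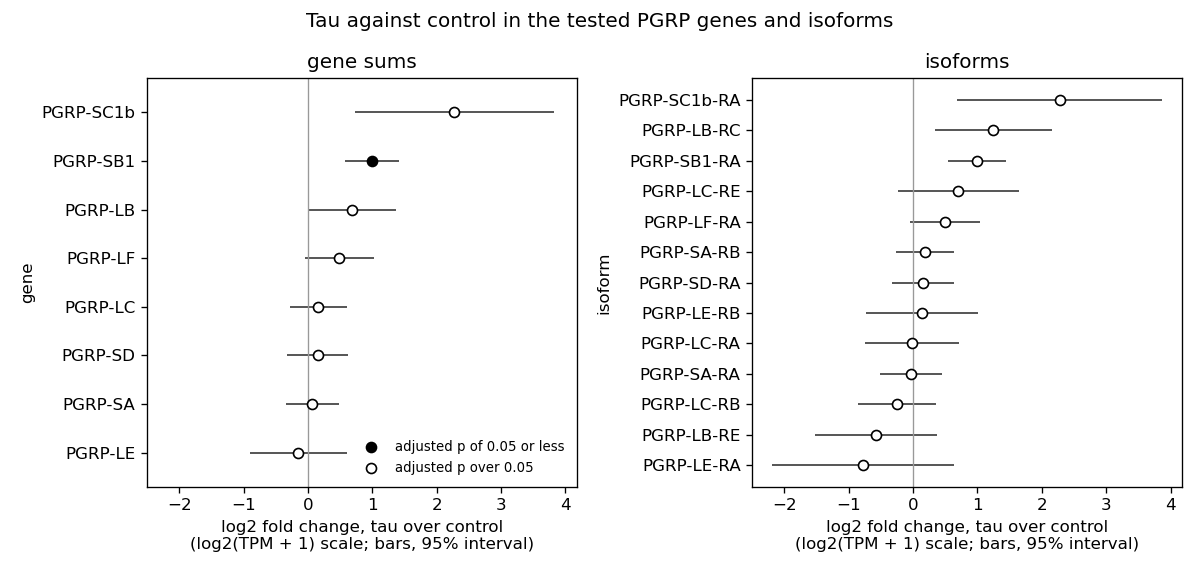
Log2 fold change of tau over control with its 95% interval (limma on log2(TPM + 1)) for the 8 tested PGRP genes and 13 tested isoforms. The filled point is PGRP-SB1 as a gene (log2 fold change 0.99, adjusted p 0.0263), and open points have an adjusted p over 0.05.

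In the order of levels, PGRP-SB1 held 63.5 ± 2.78% of the summed TPM of the 10 members in tau and 50.4 ± 6.36% in control (SD, n = 3 each). By mean TPM, it was followed in both genotypes by PGRP-SA, PGRP-SD, PGRP-LC, PGRP-LF and PGRP-LB, in that order. Division by transcript length, which raises short transcripts over long ones, gave PGRP-SB1 a share of 72.5% in tau and 60.8% in control. On the scale of TPM per kb, PGRP-SB1 (1295 ± 17.5 in tau, 677 ± 219 in control) was followed by PGRP-SD (176 ± 30.1 in tau, 162 ± 45.2 in control) and PGRP-SA (163 ± 25.7 in tau, 155 ± 34.1 in control). PGRP-SD and PGRP-SA overlapped in both genotypes. PGRP-LF, PGRP-LC and PGRP-LB came next, between 29.7 and 43.4 TPM per kb in tau and between 20.5 and 32.9 in control, and each overlapped with the next in that order. In tau PGRP-SC1b, with 29.5 ± 15.8 TPM per kb, overlapped with PGRP-LB, and in control it came after PGRP-LE. PGRP-SC2 and PGRP-SC1a were lowest in both genotypes.

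By role, the 5 amidase genes summed to 862, 851 and 880.2 TPM in tau and 313, 554 and 485 TPM in control. The 5 recognition genes summed to 454, 383 and 385 TPM in tau and 309, 401 and 403 TPM in control. The amidase sums did not overlap between the genotypes and the recognition sums did. PGRP-SB1 made up most of the amidase sum. Without PGRP-SB1, the other 9 members summed to 522, 423 and 449.9 TPM in tau and 351, 421 and 428 TPM in control, and the ranges overlapped.

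Over all members, 7 of the 8 tested genes had a log2 fold change above 0, beside 45.3% of all tested genes, and the median was 0.33, against -0.04 over all tested genes. PGRP-SB1 and PGRP-SC1b were higher in every tau library than in every control library, beside 6.11% of all tested genes. This count includes PGRP-SC1b, which passed the filter through the tau libraries.

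**Figure D4:**
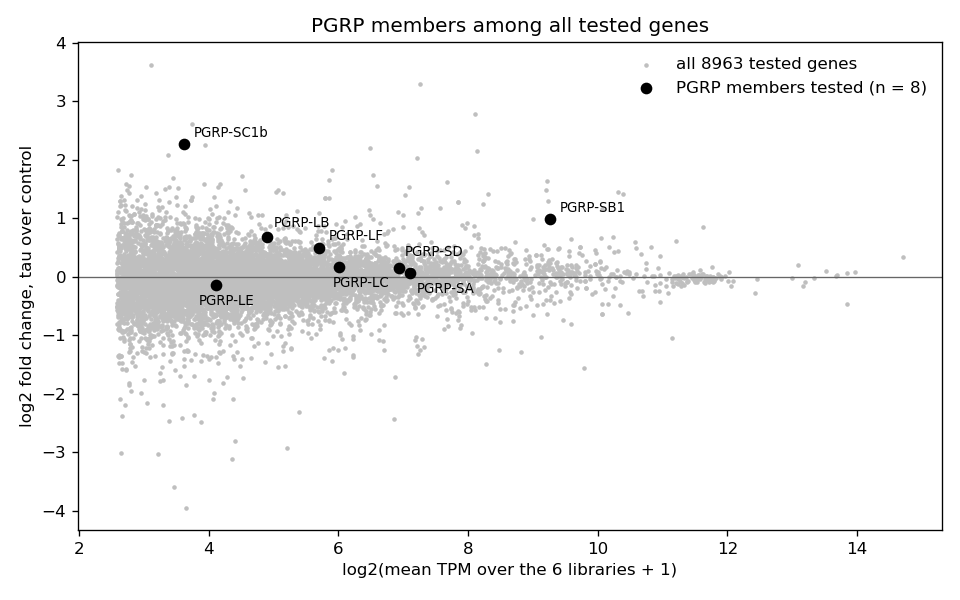
Log2 fold change of tau over control against mean level for all 8963 tested genes (grey), with the 8 tested PGRP members in black. PGRP-SB1 lies among highly expressed genes with a log2 fold change of 0.99, and PGRP-SC1b at 2.27 lies among low genes.

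The pathways that PGRPs feed were read from lists of signalling genes and of peptide genes. Of 17 Imd pathway genes (adaptors, kinases, the NF-kB factor Rel and regulators), all were tested and 0 were called by limma, with 0 at an unadjusted p under 0.05 and a median log2 fold change of 0.02. Of these, 2 had groups that did not overlap, beside 13% of all tested genes in either direction, and they are named here after their values were seen. The kinase subunit key had 43.8, 50.4 and 40.0 TPM in tau and 36.2, 30.3 and 33.2 TPM in control. The inhibitor pirk, an Imd target that removes PGRP-LC from the cell surface, had 13.2, 13.5 and 12.7 TPM in tau and 15.4, 14.5 and 15.7 TPM in control. Of 17 Toll pathway genes, 0 were called by limma, and their median was -0.16. Among them, 6 had a log2 fold change above 0. The 1 gene at an unadjusted limma p under 0.05 was GNBP3, lower in tau (log2 fold change -0.47). Here too 2 of the 17 had groups that did not overlap, beside the same 13% of all tested genes. Both were higher in tau (Myd88, log2 fold change 0.72, and spz, 0.40).

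Antimicrobial peptide genes are the targets of these pathways. Of 12 Imd-type antimicrobial peptide genes, 9 were called higher in tau and 0 lower, beside 0.636% of all tested genes called higher. All 12 were higher in each tau library than in each control library, beside 6.11% of all tested genes. Their median log2 fold change was 1.38. CecB passed the filter on low values through tau, with a control mean of 3.00 TPM. AttA (attacin) averaged 893 ± 58.3 TPM in tau and 290.2 ± 63.4 TPM in control, with a log2 fold change of 1.64. DptB (diptericin), AttB and Dro (drosocin) followed, at 1.45, 1.42 and 1.41. Of 13 Toll-type peptide genes, 6 were called higher in tau and 0 lower. The called genes were led by BomBc1 at 1.74, Drs (drosomycin) at 1.48, BomS1 at 1.16 and Mtk (metchnikowin) at 0.86. All 13 had a log2 fold change above 0, with a median of 0.52. Of the 13, 10 were higher in each tau library than in each control library, beside the same 6.11%. The limma adjusted p of the 15 called peptide genes was 0.0346 or less. The number of called genes over the 4 lists, 15, was 2 without tau library 1 and control library 3, and was 7 without control library 3 alone and 9 without tau library 2 or 3. It was 0 when limma's spread was not allowed to depend on level, with 19 of the 59 genes at an unadjusted p under 0.05, and 6 without the filter on low values. Several of these peptide genes are close copies in clusters (attacins, cecropins, bomanins), whose reads can be shared in counting.

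**Figure D5:**
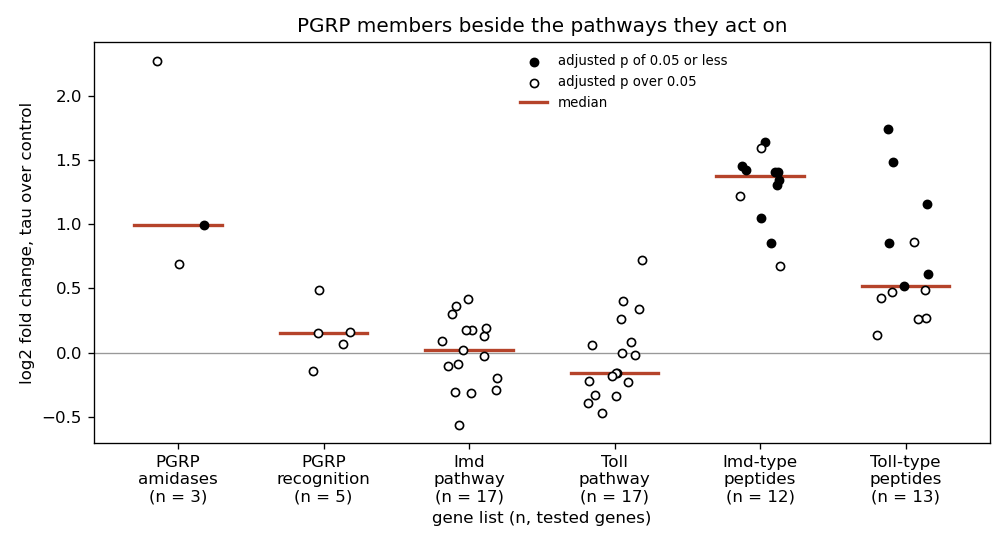
Log2 fold change of tau over control for each tested gene of the PGRP amidases, the PGRP recognition members, the Imd and Toll pathway genes and the Imd-type and Toll-type peptide genes, with filled points at an adjusted p of 0.05 or less. The medians are 0.99 for the amidases, 0.15 for the recognition members, 0.02 and -0.16 for the pathways, and 1.38 and 0.52 for the peptides. Only 3 of the 5 amidases were tested, and their median is the value of PGRP-SB1 itself. PGRP-SC1b among them passed the filter on low values through tau.

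PGRP-SB1 was read beside the peptide genes library by library. The 12 Imd-type peptides summed to 7712, 7707 and 8780.2 TPM in tau and 2441, 4341 and 3688 TPM in control. Among the control libraries, library 1 was lowest and library 2 highest in both this sum and PGRP-SB1. Among the tau libraries, library 3 was highest in both, but PGRP-SB1 was lowest in library 1 and the sum in library 2. The tau values of PGRP-SB1, 795 to 816 TPM, lie too close together for their order to be read. PGRP-SB1 amounted to 10.3, 10.5 and 9.29% of the peptide sum in tau and 11.1, 12.3 and 12.5% in control. The ratio was lower in each tau library than in each control library, with an exact permutation p of 0.1. Both values are shares of the same reads in each library.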

How the data were processed

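The authors sequenced polyA RNA from pools of 500 heads on Nanopore direct RNA flow cells, called bases with Guppy (5.1.12), kept reads of quality 9 or more and aligned them to the FlyBase 6.43 transcriptome with minimap2, allowing 10 secondary alignments. They estimated isoform abundance with NanoCount (1.0.0), and the deposited TPM is the share of assigned reads scaled to a fixed total, not divided by length. Shared reads are divided among isoforms, so only 41.7 to 44.4% of values are whole reads (within 0.01 of a read) and no count test was run. The authors report that the reads may favour the 3' end, which limits how well isoforms with different starts are separated. Columns of the authors' own DESeq2 comparison (fold changes and p-values) were not used. The 6 short-read libraries of the series were not used here. No expression column was left unassigned.

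From these values, gene sums were made by gene ID (37 isoforms without an ID took it from the annotation). Positions and lengths came from the Ensembl 115 annotation of BDGP6, which has the coordinates of dm6, the build the labels name. limma (3.58.1, R 4.3.3; lmFit and eBayes with trend, genotype as the only term) was run on log2(TPM + 1), two-sided, for features with a mean of at least 5 TPM. Fold changes are on that scale and understate those of low genes. Exact permutation tests (scipy 1.17.1) over 3 against 3 libraries cannot go below 0.1.

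The members and gene lists were chosen with earlier results of these data known. The text names every member and its isoforms, the other PGRP genes, and at most 4 called genes of each list by size. Some other list and marker genes were named after their values were seen. Replicates are separate pools, and p-values measure the spread between these pools. Levels up to the TPM of 3 reads were treated as near 0, a limit that covers counting error only. Alternatives in pseudocount, filter, scaling, eBayes options, the replicate block and left-out libraries are given in the closing section. Protein and promoter sequences were not used here.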

Additional observations from a re-analysis of the deposited data

How the results depend on the processing

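Of 363 alternative values for the 21 member genes and isoforms tested, 331 kept their direction and their side of the threshold, 7 lost a call, 7 gained one and 18 changed sign. PGRP-SB1, PGRP-SC1b, PGRP-SD and PGRP-LF stand in these counts both as gene and as isoform, with the same values. Only PGRP-SB1 as a gene was called in the main fit, so the others had no call to lose. PGRP-SB1 kept its direction in all 17 alternatives for genes and its call in 10 (log2 fold change 0.70 to 1.19, limma adjusted p 0.0115 to 0.485). Its call was lost without a filter on low values (adjusted p 0.185), with robust eBayes (0.0608), with eBayes without trend (0.485) and without tau library 1 and control library 3 (0.243). No cause was tested.

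Over all genes, 97 were called and leaving out 1 library gave 32 to 100; over all isoforms 97, and 25 to 99. Without a filter on low values 42 genes and 0 isoforms were called by limma (1744 isoforms at an unadjusted p under 0.05), and without trend 4 genes and 5 isoforms. Without tau library 1 and control library 3, 11 genes and 14 isoforms were called. The count of called PGRP genes, 1, was 0 without a filter, with robust eBayes, without trend and without that pair of libraries, and 0 to 1 with 1 library left out. The count of called PGRP isoforms, 0, was 1 (PGRP-SB1-RA) with a pseudocount of 5 TPM, a filter at 20 TPM, equal values counted once or the replicate block, and 0 to 2 with 1 library left out. The 15 called genes of the pathway lists were 6 without a filter, 0 without trend, 2 without that pair of libraries and 7 to 15 with 1 library left out. The 3 isoform shares that did not overlap were 3 to 5 with 1 library left out, and 5 of 11 groups when isoforms were grouped by start or coding end, a choice made after seeing the data.

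Sign changes all concerned small values. With 1 library left out, log2 fold changes spanned -0.0029 to 0.28 for PGRP-LC, -0.41 to 0.10 for PGRP-LE, -0.093 to 0.23 for PGRP-SA, -0.10 to 0.32 for PGRP-SD, -0.26 to 0.29 for PGRP-LC-RA, -0.24 to 0.39 for PGRP-LE-RB and -0.22 to 0.15 for PGRP-SA-RA. Without tau library 1 and control library 3 they were 0.07 for PGRP-LE and 0.01 for PGRP-SA-RA, and with upper-quartile scaling 0.0099 for PGRP-LC-RA and 0.00039 for PGRP-SA-RA. Scaling moved the median of all features by under 0.1.

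Deviations from the group mean correlated at -0.07 to 0.07 over genes between same-numbered libraries. Between differently numbered libraries the range was -0.15 to 0.16. With 3 libraries per genotype, these values cannot show whether the replicate numbers mark a shared batch. With the replicate block PGRP-SB1 had a limma adjusted p of 0.0319 over genes and 0.0212 over isoforms. PGRP-SC1a, PGRP-SC2 and 14 isoforms averaged under 5 TPM and were not tested. A read was worth 0.752 to 1.75 TPM, which limits how precisely such levels are known.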
